A study of Mus musculus with 4 samples.

Results

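The aryl hydrocarbon receptor pathway was described here by 6 genes of mouse Th17 cells: Ahr, Ahrr, Arnt, Cyp1a1, Cyp1b1 and Tiparp. The measurement is H3K27ac, the acetylated form of a histone H3 lysine that marks active promoters and enhancers, mapped by ChIP-seq (sequencing of the DNA bound to an immunoprecipitated protein). A peak, a stretch that the authors' peak caller found enriched, was taken when it overlapped one of these genes or the 100 kb on each side by at least 1 bp. This gave 81 of the 56285 peaks in the deposited list, and each of the 6 genes had some.

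Th17 cells are helper T cells that secrete IL-17. All libraries came from naive CD4+ T cells of C57BL/6 mice, cultured for 72 h. The treatment labels name 0.25 µg/mL of anti-CD3ε antibody with 1 µg/mL of anti-CD28 antibody, and as polarizing cytokines 20 ng/mL of IL-6 together with 0.1 ng/mL of TGF-β, for which the growth text gives a range. There were 2 H3K27ac libraries and 2 input DNA libraries, 1 of each kind per biological replicate, and neither another cell state nor a receptor ligand treatment is in the labels. The list holds positions only and 1 entry per peak for the whole experiment, so no value below has a replicate error, no comparison between samples could be tested, and the depth is unknown.

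AhR is a transcription factor of the bHLH-PAS family that rests in the cytosol with chaperones until it binds a ligand, such as a dioxin, a plant indole or a tryptophan derivative. It then enters the nucleus, pairs with ARNT and binds response elements with the core GCGTG. The classical targets are the monooxygenase genes Cyp1a1 and Cyp1b1 and the genes of its own inhibitors, Ahrr and Tiparp. Th17 cells are known to express Ahr, and the receptor is known to be needed for their IL-22 production.

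The promoters of the 4 classical target genes are shown because peaks covered those of Cyp1b1, Ahrr and Tiparp wholly and that of Cyp1a1 not at all. The sequences are RefSeq's for GRCm38, 250 bases before to 50 bases after the annotated start, read in the direction of transcription, and capitals mark GCGTG or its complement CACGC. The Cyp1a1 stretch lies at chr9:57697363-57697662 on the plus strand, Cyp1b1 at chr17:79715012-79715311 on the minus strand, Ahrr at chr13:74292282-74292581 on the minus strand and Tiparp at chr3:65528197-65528496 on the plus strand.
Cyp1a1: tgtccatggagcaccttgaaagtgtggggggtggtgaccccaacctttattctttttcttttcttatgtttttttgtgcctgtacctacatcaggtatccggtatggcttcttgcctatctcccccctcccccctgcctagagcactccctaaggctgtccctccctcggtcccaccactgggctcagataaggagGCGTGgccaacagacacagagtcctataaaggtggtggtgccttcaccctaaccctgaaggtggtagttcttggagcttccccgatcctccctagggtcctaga
Cyp1b1: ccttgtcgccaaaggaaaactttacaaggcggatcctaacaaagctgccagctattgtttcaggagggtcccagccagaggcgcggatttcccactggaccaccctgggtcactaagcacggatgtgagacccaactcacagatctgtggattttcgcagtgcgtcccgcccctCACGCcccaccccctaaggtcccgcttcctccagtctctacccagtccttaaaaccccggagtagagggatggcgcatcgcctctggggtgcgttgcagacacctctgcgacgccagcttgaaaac
Ahrr: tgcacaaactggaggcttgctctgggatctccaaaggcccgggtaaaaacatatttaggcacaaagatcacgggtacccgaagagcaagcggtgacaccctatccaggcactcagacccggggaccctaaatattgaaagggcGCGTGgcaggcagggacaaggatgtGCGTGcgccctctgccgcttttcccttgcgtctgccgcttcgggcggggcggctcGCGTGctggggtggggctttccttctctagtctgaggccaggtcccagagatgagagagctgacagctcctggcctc
Tiparp: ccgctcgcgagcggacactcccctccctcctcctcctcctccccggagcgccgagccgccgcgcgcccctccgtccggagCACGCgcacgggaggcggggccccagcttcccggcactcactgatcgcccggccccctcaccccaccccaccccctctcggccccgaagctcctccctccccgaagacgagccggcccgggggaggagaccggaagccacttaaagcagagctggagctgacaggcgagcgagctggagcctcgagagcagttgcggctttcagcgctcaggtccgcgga

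Peaks covered all 300 bases of the Cyp1b1, Ahrr and Tiparp promoters and 0 bases of the Cyp1a1 promoter. The Arnt promoter (chr3:95434140-95434439, plus strand) was also wholly under a peak. Of 21045 promoter entries of protein-coding genes, 41.5% lay wholly under peaks and 51.4% were touched by one. Ahr is not in the promoter table used here, so both of its annotated ends were taken as possible starts.

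The core GCGTG, searched on both strands, was found in the promoters of 5 of these 5 genes and in 38.8% of all promoter entries. Ahrr had 3 matches, 107 to 103, 82 to 78 and 27 to 23 bases before the start. Cyp1a1 had 1, at 54 to 50 bases before the start, and Cyp1b1 had 1, at 76 to 72. Arnt had 1, at 29 to 25 bases, and Tiparp 1, at 170 to 166. The longer form TNGCGTG, which contains the core, was found in Ahrr alone among the 5 and in 6.02% of all entries. The core of the hypoxia element, ACGTG, which ARNT binds with other partners, was found in 0 of the 5 promoters and in 21.1% of all. The promoters held between 4 (Cyp1a1) and 34 (Tiparp) CG dinucleotides, against a median of 13, and 54.0 to 73.7% G and C, against a median of 56.7%. A match is a run of letters and not a measured binding site.

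All 6 genes had a peak within 1000 bp of an annotated start, as did 54.2% of 21631 protein-coding genes. In 5 of the 6 a peak covered the start itself, against 48.8% of all genes, and the exception was Cyp1a1. All 6 genes were touched by a peak, against 59.7% of all genes. With both ends of Ahr allowed, Ahr had more chances to count than a gene with a single start. The same held for 4357 of the 21631 genes in the background.

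**Figure D1:**
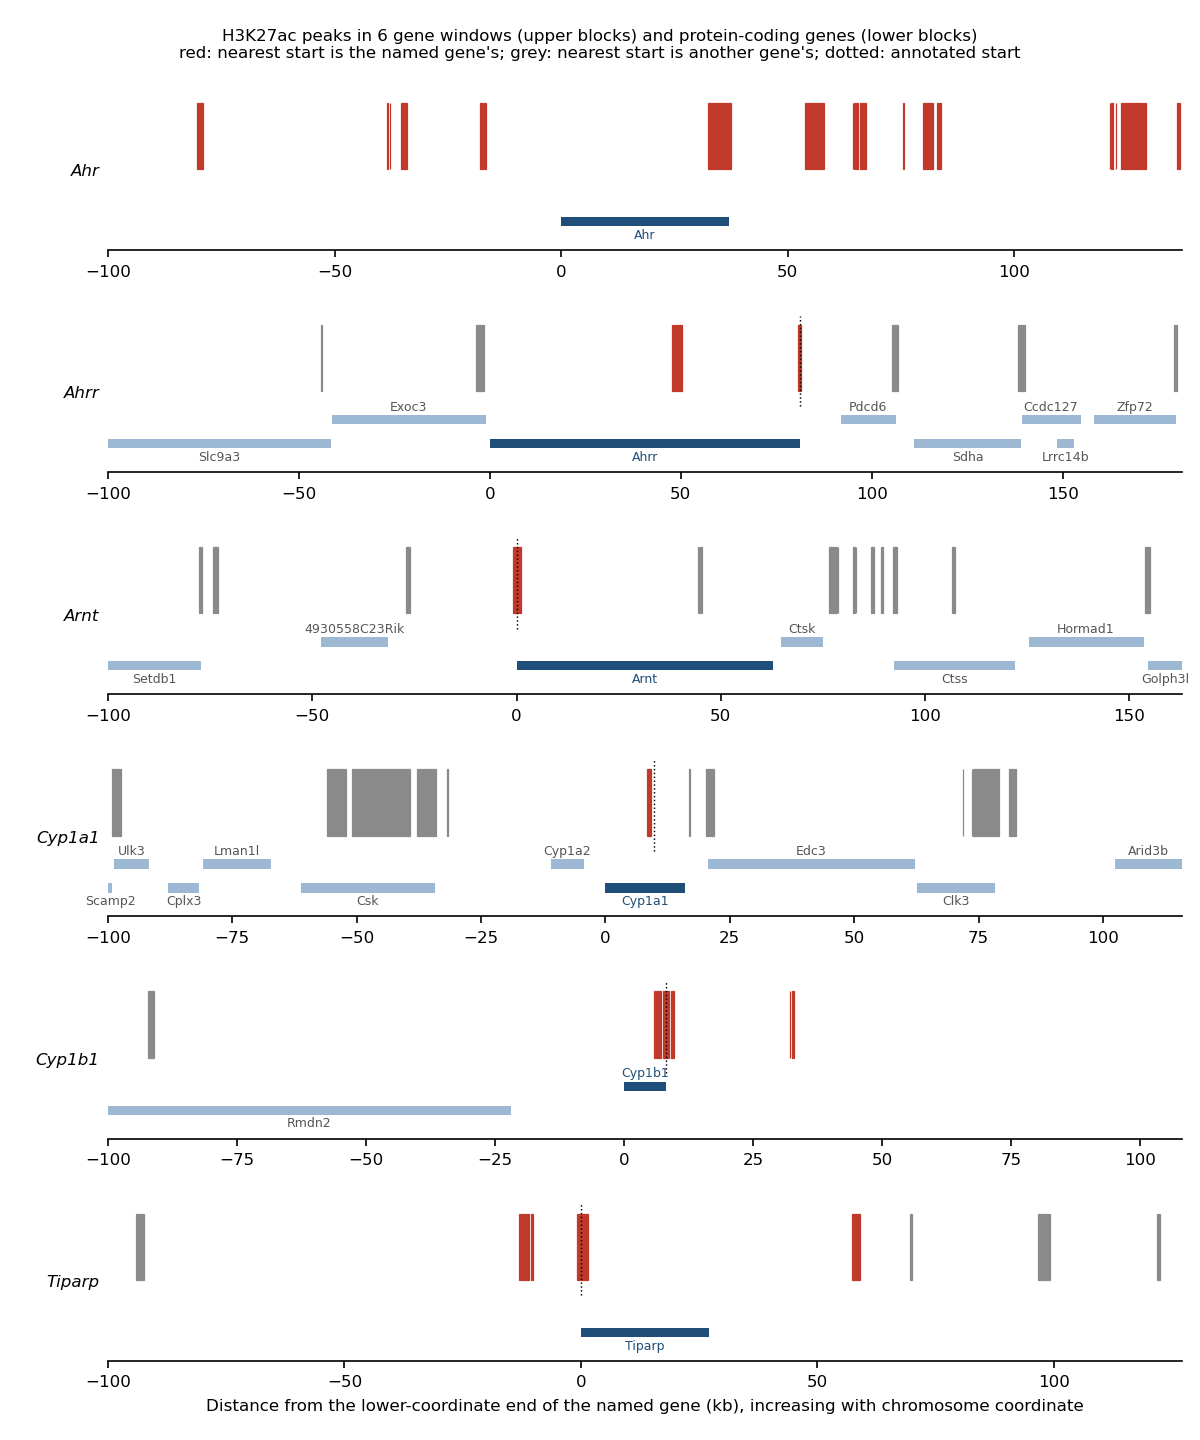
Positions of the 81 peaks (upper blocks) and of the protein-coding genes (lower blocks, dark for the named gene) in the gene and 100 kb on each side, plotted as distance in kb from the lower-coordinate end of the gene. Red peaks have their nearest start at the named gene and grey peaks at another gene. All peaks are red for Ahr and 1 of 17 is red for Cyp1a1, where the red peak stops short of the dotted start.

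The receptor gene Ahr had the most peaks of the 6. Its window on chromosome 12 (gene at 35497979 to 35534989) held 22 peaks with 25383 acetylated bp, or 10.7% of the window. No other protein-coding gene lies in this window, and all 22 peaks had their nearest start at Ahr. Among all protein-coding genes, 86.0% had a shorter acetylated length in such a window, with genes of equal value split evenly. This share is called the percentile below. The median over all genes was 8 peaks (quartiles 2 and 16) and 8388 bp (1893 and 18097 bp).

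A window without neighbours usually held few peaks. Among the 1020 protein-coding genes with no other protein-coding gene in the window, a comparison chosen after the values were seen, the median was 0 peaks. Within that group Ahr lay at percentile 95.8 by acetylated length. Tiparp, the other member in it, lay at percentile 89.7.

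The widest Ahr peak, 5115 bp at chr12:35530332-35535446, covered the higher-coordinate end of the gene, with 4658 bp inside the gene and the rest beyond it. It was the only peak that touched Ahr, and the 48967 bp below it held no peak. By the width of its start peak Ahr lay at percentile 94.0 of 11718 genes that had one, whose median width was 1808 bp (quartiles 1182 and 2650.5 bp).

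Most of the acetylated length around Ahr lay outside the gene, as did most of the window. The gene spans 37011 bp, with 4658 acetylated bp, between flanks of 100 kb on each side. Beyond the higher-coordinate end were 15 peaks with 16302 bp, against 6 peaks with 3966 bp below the lower end. With neighbours joined across gaps of up to 12.5 kb, the first group beyond the higher end began 16.7 kb and ended 46.9 kb from it and held 9 peaks and 9446 bp. Its widest peak, 4205 bp, lay at chr12:35551715-35555919. A second group began at 84.1 kb and ended at 119.3 kb, with 12 peaks and 16385 bp, of which 6 peaks and 9529 bp lay past the 100 kb limit. It ranked 609th of 18749 such groups by covered length, within the top 3.25%, while the peak at the gene end ranked 3079th. The widest peak of the second group inside the window was 4671 bp (chr12:35621541-35626211). Below the gene, the peaks were 112 to 1256 bp wide. The 3 widest peaks of the window made up 55.1% of its acetylated length.

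Arnt, which encodes the partner with which AhR binds DNA, had a start peak close to the median width. A peak of 1914 bp (chr3:95433463-95435376) spanned its start, from 927 bp before to 986 bp after it, at percentile 54.1 of start peaks. Inside the gene (95434367 to 95497240) lay 2 further peaks of 254 and 667 bp, 44.4 and 44.8 kb after the start. The window held 16 peaks and 13068 bp (percentile 64.0), but only the start peak, 14.6% of this length, had its nearest start at Arnt. Most of the rest had its nearest start at the cathepsin genes next to it. Ctss, for cathepsin S, had 7 peaks and 4323 bp, and Ctsk, for cathepsin K, had 3 peaks and 2841 bp. The peaks counted for Ctsk include the 254 and 667 bp peaks inside Arnt, and no peak touched Ctsk itself. Setdb1, which encodes a histone methyltransferase, had 3 peaks and 1868 bp.

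Ahrr encodes a repressor that competes with AhR for ARNT. Its start peak was the narrowest of the 6, 781 bp at chr13:74291895-74292675, and covered 344 bp before to 436 bp after the start (percentile 12.9). A wider peak of 2163 bp (chr13:74259376-74261538) lay inside the gene, 30.8 kb after the start, beside one of 108 bp. These 3 peaks were all that had their nearest start at Ahrr (gene at 74211118 to 74292331), with 3052 bp or 30.7% of the window. The other 5 of the 8 peaks had their nearest start at neighbours. Exoc3, of the exocyst, had 2 peaks and 2649 bp, of which 1 peak of 354 bp lay inside Slc9a3, a sodium-proton exchanger gene. Sdha, of the respiratory chain, Pdcd6 and Zfp72 had 1 each. The whole window had 9953 bp, near the middle of all genes (percentile 55.2).

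Tiparp encodes a mono-ADP-ribosyltransferase that AhR induces and that in turn restrains AhR. Its start (chromosome 3, gene at 65528447 to 65555518) lay in a peak of 2366 bp that ran from 924 bp before to 1441 bp after it, at percentile 68.5. The long noncoding RNA gene 4931440P22Rik overlaps the same peak, so acetylation of the 2 genes cannot be told apart there. Upstream, 4 peaks of 361 to 820 bp lay between 10155 and 13083 bp before the start, over the annotated noncoding genes Gm40066 and Gm38503 in part. No other peak touched Tiparp, and the next one followed after 55897 bp. Of 11 peaks and 11038 bp in the window (percentile 58.7), 6 peaks with 55.8% of the length had their nearest start at Tiparp. By nearest start, Lekr1 had 4 peaks and 3112 bp, and Ssr3, which encodes a translocon-associated protein, had 1 of 1764 bp. Both genes lie outside the window, 104.0 and 135.9 kb from Tiparp, and none of these peaks touched either gene.

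The target enzyme genes differed from each other at the start. Cyp1b1 (chromosome 17, 79706940 to 79715061) had 4 peaks packed around its start. The peak over the start was 1109 bp (chr17:79714578-79715686) and reached from 625 bp before to 483 bp after it. A peak of 597 bp lay just upstream, and peaks of 1011 and 225 bp followed inside the gene. Together these 4 covered 2942 bp in a span of 3825 bp. Another pair, of 100 and 345 bp, lay 24.0 and 24.4 kb upstream over the noncoding gene Gm33055. On the other side, below the peaks in the gene, no peak followed for 96773 bp, and the only other peak of the window, 1236 bp, lay at the start of Rmdn2. The window of Cyp1b1 had the fewest peaks, 7, and the shortest acetylated length of the 6, 4623 bp at percentile 35.6.

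At Cyp1a1 (chromosome 9, 57687928 to 57703824) a single peak of 940 bp touched the gene. It lay at chr9:57696239-57697178, between 1374 and 435 bp before the annotated start, in the part of the gene model upstream of that start. The region just upstream of Cyp1a1 is known as the enhancer where AhR response elements cluster. No genome sequence was used here, so the elements under this peak were not counted. Below the peak, 39895 bp without a peak contained all of Cyp1a2, the neighbouring family member. Among all start peaks the width was at percentile 17.1.

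The window of Cyp1a1 was the most acetylated of the 6, and nearly all of it belonged by position to other genes. It held 17 peaks and 30257 bp (percentile 90.4), of which 940 bp, or 3.11%, had their nearest start at Cyp1a1. Csk, which encodes a kinase that inhibits T cell receptor signalling, had 7 peaks and 18499 bp, with 1 peak of 10695 bp. Clk3, a splicing kinase gene, had 5 peaks and 6638 bp, and Edc3, of mRNA decapping, 2 peaks and 1877 bp. With flanks of 20 kb in place of 100 kb the percentile of Cyp1a1 was 54.0, with 2817 bp, of which the 1877 bp of Edc3 were the larger part. Ahr kept a high place with the shorter flanks, at 87.6, and Cyp1b1 moved from 35.6 to 55.2.

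**Figure D2:**
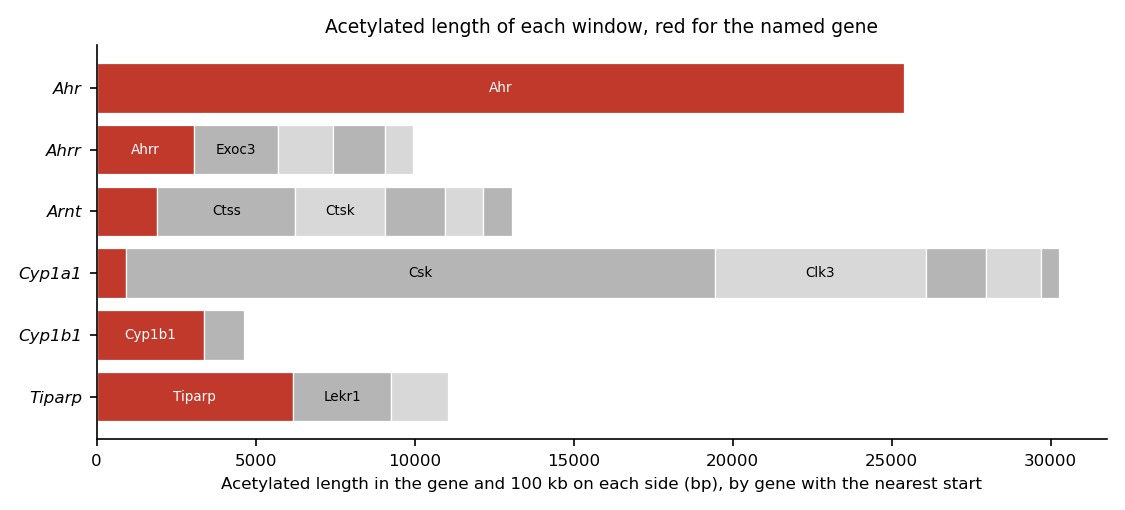
Acetylated length in bp in each gene and the 100 kb on each side, split by the gene with the nearest annotated start (red for the named gene, grey shades for neighbours, the wider ones labelled). The red part is the whole bar for Ahr, 25383 bp, and the shortest for Cyp1a1, 940 bp.

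Over the 6 genes together, 39 of the 81 peaks and 43.3% of the 94322 acetylated bp had their nearest start at the member. The remaining 42 peaks were nearer to a neighbour's start. Which gene a peak acts on was not tested. The median over the 6 windows was 13.5 peaks and 12053 bp, against 8 and 8388 bp over all protein-coding genes. Of the 81 peaks, 12 touched a member gene and 30 were under 500 bp wide, and the median width was 684 bp, against 579 bp in the whole list.

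Start peaks of the target genes Ahrr, Cyp1a1 and Cyp1b1 were narrow, at 781, 940 and 1109 bp, all under the lower quartile of 1182 bp over all genes with a start peak. That of the remaining target gene, Tiparp, was 2366 bp and lay between the quartiles, as did that of Arnt. The start peak of Ahr lay above the upper quartile. The median over the 6 was 1511.5 bp, against 1808 bp over all. The Cyp1b1 start peak was 1 of 4 closely spaced peaks, which together covered 2942 bp in a span of 3825 bp. A width depends on the settings of the peak caller, not given in the sources used here, and is no measure of signal height.

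**Figure D3:**
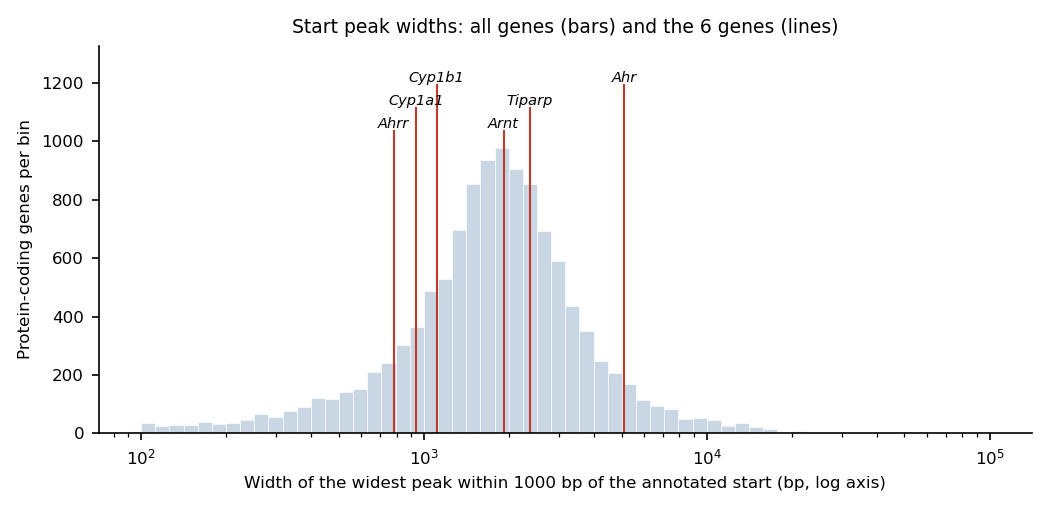
Widths in bp (log axis) of the widest peak within 1000 bp of a start for 11718 protein-coding genes (bars, number of genes per bin) and the 6 pathway genes (red lines). Ahrr, Cyp1a1 and Cyp1b1 lie below the lower quartile of 1182 bp, and Ahr, at 5115 bp, lies in the right tail.

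The rest of the pathway was read from 6 further lists with 42 genes, of which 28 had a start peak, to be read against 54.2% of all protein-coding genes. For the smaller lists below the same 54.2% applies, and no count was tested against it. For these, length was summed over the gene and 20 kb on each side, where the median of all protein-coding genes was 2399 bp and that of the 6 pathway genes 4962 bp. The genes of the cytosolic receptor complex had a start peak at 4 of 4 members, with a median of 10476 bp. Ptges3, which encodes the p23 co-chaperone, had 16721 bp, and the HSP90 chaperone genes Hsp90ab1 and Hsp90aa1 had 14093 and 6859 bp. Of these lengths, 3506, 3450 and 1453 bp lay inside the genes. Inside the gene, the list median was 3222.5 bp, against 704 bp over all protein-coding genes. The coregulator genes had one at 8 of 8 members, with a median of 12679 bp. The steroid receptor coactivator genes Ncoa3, Ncoa1 and Ncoa2 led with 28417, 18668 and 18630 bp. The list sums with 20 kb flanks were not split by nearest start and can include acetylation nearer to other genes. They were also not scaled to gene length. Ncoa1 and Ncoa2 are 229845 and 235123 bp long, against 8122 to 81214 bp for the 6 pathway genes.

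Of 8 bHLH-PAS relatives, 5 had a start peak, a share near the 54.2% of all protein-coding genes. Hif1a, which encodes the oxygen-regulated partner of ARNT, had 41762 bp and a start peak of 20509 bp, at percentile 99.6 by length. Npas2 had 9213 bp and Epas1 7037 bp. The Epas1 peak lay within 1000 bp of an annotated end and did not cover it. Arnt2, the paralogue of Arnt that is known from neurons, and the developmental regulators Sim1 and Sim2 had no peak in the gene or its 20 kb flanks.

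Of 7 xenobiotic response genes, 3 had a start peak, against 54.2% of all protein-coding genes, and the median length was 746 bp. The longest was Nfe2l2, which encodes the oxidative stress regulator NRF2 and is not an enzyme gene, with 24268 bp. Ugt1a6a had 5404 bp, but it shares exons and sequence with neighbouring Ugt1a genes. The third was Nqo1 with 746 bp, named because the count is small. Aldh3a1 had no peak and Gsta1 234 bp. The 940 bp of Cyp1a2 were the peak of Cyp1a1. Of 7 genes for tryptophan-derived ligands, 2 had a start peak, Afmid (13550 bp) and the amino acid transporter gene Slc7a5 (10809 bp). Ido1 had no peak and Ido2 had 135 bp. Il4i1, a ligand-producing amino acid oxidase gene, had 16516 bp in its flanks and none inside the gene.

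Among 8 T cell genes known to respond to AhR, 6 had a start peak, against 54.2% of all protein-coding genes, and the median length was 9198 bp. Gpr15, for a homing receptor, had 33292 bp with a start peak of 24213 bp, Il23r, for a chain of the IL-23 receptor, had 25062 bp and Ccr6, for a chemokine receptor, 17400 bp. Of these lengths, 2230, 17760 and 9910 bp lay inside the genes. The members without a start peak were Il22, with 767 bp, and Kit, with 3601 bp, in each case with no bp inside the gene. Several of these genes also define Th17 cells, so the list does not stand for AhR activity.

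**Figure D4:**
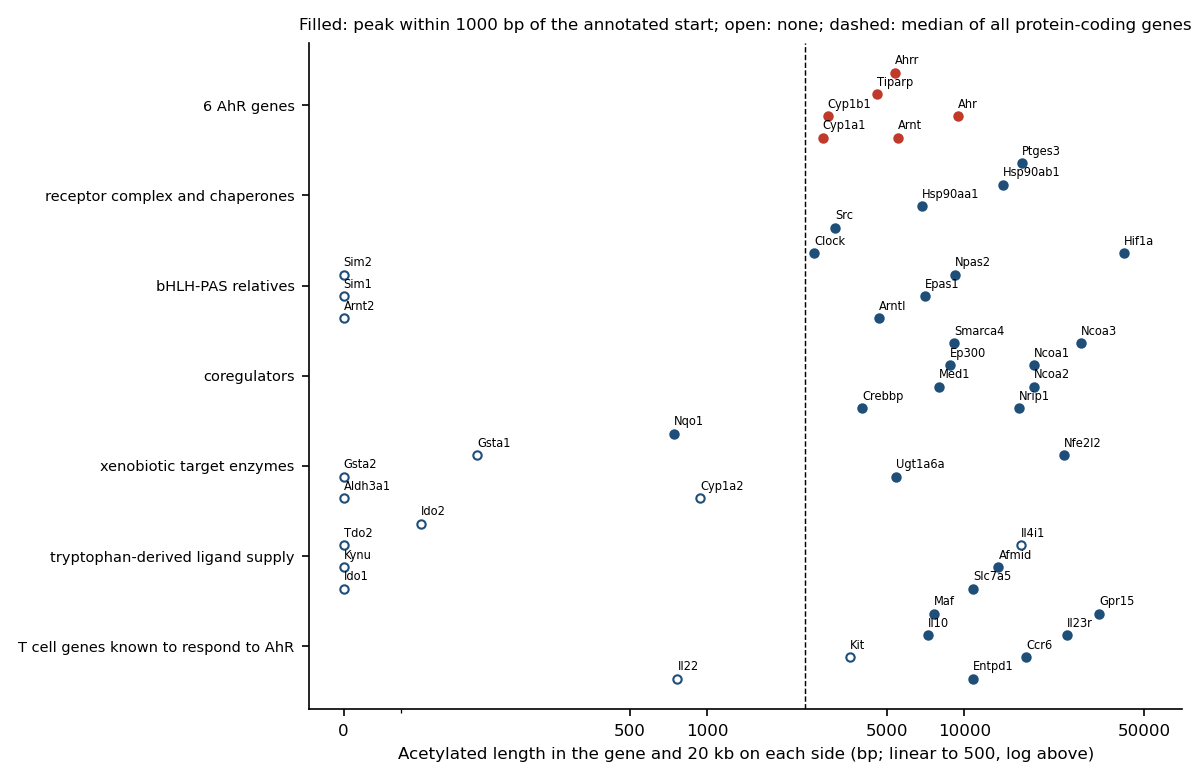
Acetylated length in bp in each gene and 20 kb on each side (linear to 500 bp, log above) for the 6 pathway genes (red) and 6 further lists (blue), filled where a peak lay within 1000 bp of a start. The dashed line is the median of all protein-coding genes, 2399 bp, and all 6 red points lie to its right, from Cyp1a1 at 2817 bp, of which 1877 bp had their nearest start at Edc3, to Ahr at 9461 bp.

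The cells' label was checked with markers. A start peak was found at 7 of 7 Th17 markers (Il17a, Il17f, Il23r, Ccr6, Batf, Irf4 and Stat3; median 25062 bp with 20 kb flanks) and at 6 of 6 T cell markers (17483.5 bp). It was found at 0 of 4 B cell markers (1741.5 bp), 0 of 4 myeloid markers (0 bp) and 0 of 4 epithelial or liver markers (206.5 bp). Over all protein-coding genes, 54.2% had a start peak and the median length was 2399 bp. The T cell markers Cd3d and Cd3g shared 1 start peak of 10251 bp, so they are not separate observations. Markers of other helper T cell types were not examined. The B cell marker Cd79a, named after its values were seen, had 14881 bp in the gene and its 20 kb flanks, of which 687 bp lay inside the gene.

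The shape of acetylation around the start was compared between genes, as the covered share of 40 bins of 5 kb from 100 kb before to 100 kb after it. Values are Pearson's r across bins within the 1 list, over 13995 genes (13996 for Ahr, centred on the end with the peak), as a description. Ahr was most like Vav3 (0.791), Ywhah (0.757) and Chst15 (0.749). Arnt was most like Ptcd3 (0.803), Eif1b (0.775) and Gigyf2 (0.773). Ahrr was most like Olah (0.827), Peli2 (0.789) and Man2b2 (0.765), and Tiparp like Stil (0.722), Wapl (0.701) and Washc2 (0.676). Cyp1a1 was most like Lrrc63 (0.825), Cpb2 (0.803) and Tbc1d22b (0.795). The Cyp1a1 bins from -65 to -45 kb were each covered by at least 31.38%, by peaks with their nearest start at Csk. Those from 60 to 70 kb were each covered by at least 23.26%, by peaks with their nearest start at Clk3. The peak of Cyp1a1 itself covered 18.8% of the bin from -5 kb. The values for Cyp1a1 therefore describe mainly the acetylation of neighbours. Cyp1b1 had the highest values of the 6, with Map4k3 (0.979), Rpp30 (0.971) and Plk2 (0.960). Its bins were empty except those from -25 kb (8.9%), -5 kb (24.46%), 0 kb (34.38%) and 95 kb (17.72%). These values therefore rest on few covered bins, and all genes named here were picked as the highest of the genes compared.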

How the data were processed

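Per the submitters' processing notes, the build was GRCm38 (mm10) and the tools were MACS2 2.2.6, SAMtools 1.9, Bowtie2 2.3.4.1 and deepTools. Input DNA of each replicate was used for peak calling, per the series' design text. Thresholds, settings and pooling: not given in the sources used here. Per peak, the authors' deposited file lists a position in bp and a name, with no score. Starts were read as counted from 0 and are printed from 1. Names carry running numbers up to 71449 for 56285 peaks, and the 6 windows skip 0 (Cyp1b1) to 10 (Ahr) numbers. Those numbers are not analysed here.

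Genes and promoters came from RefSeq tables of GRCm38, limited to the 21631 protein-coding genes of the autosomes and chromosome X. Of these, 17274 have a start in the promoter table, and both annotated ends were used for the other 4357. The 6 members and 42 listed genes all matched by symbol. Some genes of the lists are not reported here. The members and lists were chosen with earlier results of these data known. Named genes are all members, the neighbours with most peaks, up to 3 genes per list with the longest acetylated length, up to 3 in alphabetical order without a start peak, and the 3 most alike in pattern. Overlap counting was tested on simulated data. Alternatives were shorter flanks, other start windows, peaks of at least 500 bp, merged peaks, midpoints and other stitching gaps. Python 3.11.15, numpy 2.4.6, pandas 2.3.3 and matplotlib 3.10.9 were used.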

Additional observations from a re-analysis of the deposited data

How the results depend on the processing

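The 81 peaks of the 6 windows became 26 with flanks of 20 kb, 51 without peaks under 500 bp and 52 with peaks at most 1000 bp apart merged. The 94322 acetylated bp became 30671 with flanks of 20 kb, 61995 with 50 kb and 40838 with only the peaks whose nearest start is the member's, the last chosen after the data were seen. The median percentile of the members by acetylated length, 61.35, became 70.3 with 20 kb flanks and 74.55 for the gene body alone. A start peak was found at 6 of 6 genes under 4 alternatives, beside 50.5 to 56.0% of all protein-coding genes. It was found at 5 with peak midpoints, where the wide Ahr peak was lost. With either annotated end, Cyp1a1 counted only through a 317 bp peak lying 871 bp beyond its higher-coordinate end. That peak had its nearest start at Edc3. Of the 42 listed genes, 28 had a start peak under 3 alternatives and 27 when either annotated end was used for every gene. By nearest gene body, 43 in place of 39 peaks belonged to the members. Members were touched by 8 stitched groups at gaps of both 12.5 kb and 5000 bp, but some groups shrank. The Cyp1a1 group went from 3 peaks and 2817 bp to 1 peak and 940 bp at the shorter gap. The Tiparp group went from 5 peaks and 4577 bp to 1 peak and 2366 bp. The groups beyond the higher-coordinate end of Ahr touch no member and are not in this count. Each holds a gap above 5000 bp, so their sizes and rank hold for 12.5 kb only. No paired analysis was possible because the list holds no value per library. With no score or depth, weak and strong peaks count alike.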

Other observations

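The acetylation around Ahr went on past the 100 kb limit. The nearest protein-coding genes are Snx13, 350.5 kb below, and Agr3, 390.6 kb above, and the interval between them, Ahr included, spans 778140 bp. It held 66 peaks and 57662 acetylated bp, with 1 peak touching Ahr, 14 below the gene and 51 above it. In the corresponding interval of Tiparp, between Ssr3 and Lekr1, 13 peaks covered 12302 bp of 266985 bp, with 6 on each side and 1 touching the gene. The acetylated share was 7.41% around Ahr and 4.61% around Tiparp. These intervals were chosen after the values were seen.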
